A study of Mus musculus with 11 samples.

Results

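The genes described here are the 10 of the ATG12-ATG5 conjugation machinery of autophagy, namely Atg5, Atg7, Atg3, Atg10, Atg12, Atg16l1, Atg16l2, Atg4b, Atg4c and Atg4d. They were chosen by name: each symbol matched 1 Ensembl gene ID in GENCODE M21 (GRCm38), and all 10 were among the 56748 genes counted and among the 17987 tested. The series text describes RNA of sorted liver CD4 T cells, whereas the labels' protocols describe RNA from fixed sections. The mice received carbon tetrachloride (CCl4), a toxin that injures hepatocytes and leads to fibrosis, for 5 weeks. The Atg5-deficient group (ATG5TLymph-/-, 6 libraries) lacks Atg5 in T lymphocytes, and the wild-type group (5 libraries) carries the floxed gene without deletion (ATG5fl/fl). All mice of both groups received CCl4. The sources used here give neither the Cre driver, nor the deleted part of Atg5, nor the age of the mice. Whether each library is a separate mouse is not stated, so p-values cover only the spread between libraries, which may be technical.

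Autophagy wraps cytoplasm in a double membrane and delivers it to lysosomes. Its membrane grows with the help of 2 conjugation reactions that resemble ubiquitination. In the first, the activating enzyme ATG7 and the conjugating enzyme ATG10 attach ATG12 to ATG5, and the conjugate binds ATG16L1. That complex then acts as a ligase, which together with ATG7 and the conjugating enzyme ATG3 attaches ATG8 proteins (LC3 and GABARAP) to the lipid phosphatidylethanolamine. ATG4 proteases trim new ATG8 proteins before this step and later release them from membranes. T cells need this machinery for survival and memory, which is known from mice that lack Atg5 or Atg7.

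Libraries held 30699408 to 47564440 counted reads, and values below are CPM, the counts of a gene over the library's total in reads of tested genes, after TMM scaling. As CPM of all counts, the summed markers of CD4 T cells (8 genes) ran from 2917 to 3995 CPM in the Atg5-deficient group and from 2891 to 3236 CPM in the wild-type group, above the 8 hepatocyte markers, with 42.0 to 782 CPM and 30.6 to 440 CPM. Markers of NK cells summed to 9.21 to 87.4 CPM in the Atg5-deficient group and 14.96 to 18.5 CPM in the wild-type group, those of macrophages and monocytes to 5.17 to 20.7 CPM and 10.1 to 14.7 CPM, and those of neutrophils to at most 0.603 and 0.399 CPM. Endothelial markers summed to 120 to 198 CPM in the Atg5-deficient group and 123 to 223 CPM in the wild-type group, above the hepatocyte sum in several libraries. No tested gene of the 11 marker lists was called higher or lower, but several markers were not tested. Tested were 0 of 4 neutrophil, 1 of 2 CD8 T cell, 3 of 4 NK cell and 5 of 7 macrophage and monocyte markers. So were 3 of 5 endothelial, 3 of 6 stellate and fibroblast and 3 of 4 cholangiocyte markers, and all markers of the remaining lists. The part of other cells in the results was not tested. A lower CPM in bulk RNA cannot be told apart from fewer cells of a type that express the gene.

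Promoter sequence was looked up because several autophagy genes are known targets of TFEB-family factors, which bind motifs around the palindrome CACGTG (it reads the same on both strands). RefSeq (GRCm38.p6) gave a window for 8 of the 10 genes. In the 200 bases before the transcription start, the motif was found in Atg5, Atg7 and Atg3, 3 of those 8 genes, and in 6.0% of all 27025 genes with a window. The 3 windows are shown 5′ to 3′ on the plus strand with the motif in capitals, at chr10:44268139-44268338, chr6:114670896-114671095 and chr16:45158629-45158784, the last of these ending before the first annotated exon of Atg3.
Atg5: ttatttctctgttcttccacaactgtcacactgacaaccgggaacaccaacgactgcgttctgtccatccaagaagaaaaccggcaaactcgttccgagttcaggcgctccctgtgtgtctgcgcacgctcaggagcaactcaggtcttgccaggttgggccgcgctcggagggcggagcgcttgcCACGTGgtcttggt
Atg7: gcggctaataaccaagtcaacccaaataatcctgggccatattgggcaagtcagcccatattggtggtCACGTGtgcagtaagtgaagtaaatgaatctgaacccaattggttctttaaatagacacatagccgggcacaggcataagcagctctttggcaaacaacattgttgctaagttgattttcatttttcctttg
Atg3: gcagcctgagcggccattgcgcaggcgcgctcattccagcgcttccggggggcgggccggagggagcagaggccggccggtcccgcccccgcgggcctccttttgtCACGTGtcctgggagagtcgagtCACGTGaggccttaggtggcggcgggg
The motif began 14 bases before the RefSeq start in Atg5, 132 bases before it in Atg7, and 94 and 71 bases before it in Atg3. The Atg7 window lies inside the longer GENCODE gene (chromosome 6, 114643097 to 114860614), outside its annotated exons. The bases before the GENCODE start of Atg7 were not searched, so its match concerns the RefSeq start only. A match describes these letters and is no evidence of binding.

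The 10 genes covered a wide range of levels. Per kilobase of annotated exons, Atg3 stood highest at 14.0 ± 0.881 CPM per kilobase (SD over 11 libraries) and Atg4c lowest at 0.334 ± 0.177. The median over 17224 tested genes with a known length was 3.15 CPM per kilobase. After Atg3 came Atg5 (7.71 ± 1.32 CPM per kilobase), Atg16l2 (6.40 ± 0.754), Atg16l1 (6.17 ± 0.890), Atg12 (4.81 ± 0.607), Atg4b (4.55 ± 0.508), Atg4d (4.18 ± 0.754), Atg7 (2.87 ± 0.461) and Atg10 (2.11 ± 0.405). Several neighbours in that order did not differ beyond their spread. Atg16l2 exceeded Atg16l1 in 6 of 11 libraries, Atg12 exceeded Atg4b in 7, and Atg5 exceeded Atg16l2 in 8, whereas Atg3 exceeded Atg5 and Atg10 exceeded Atg4c in all 11. The middle of the order depended on the length used, because some genes have long retained-intron transcripts among their annotated exons. With the longest principal transcript, Atg16l1 (3130 bases in place of 9628) moved to second place at 19.0 ± 2.74 CPM per kilobase, behind Atg3 with 21.4 ± 1.35, and Atg5 moved to sixth. Atg3 stayed first, and Atg10 and Atg4c stayed last, under both lengths. The conjugating enzymes of the 2 reactions thus stood apart, with Atg3 above Atg10 in every library under both lengths.

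**Figure D1:**
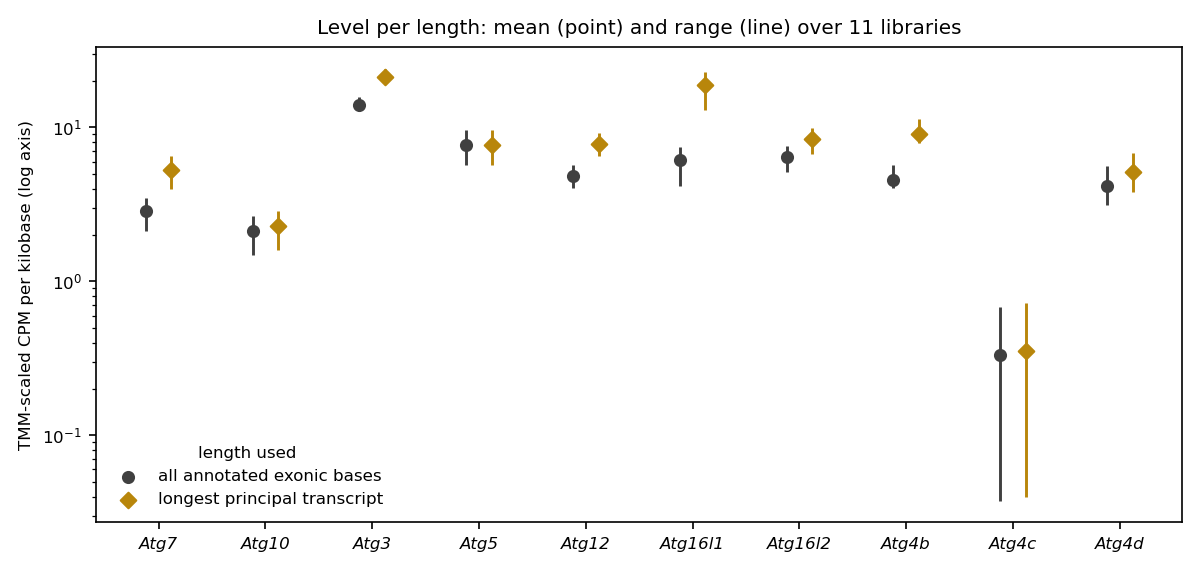
Level of each gene per kilobase, as TMM-scaled CPM on a log axis, with the mean over 11 libraries as a point and the range as a line. Circles use all annotated exonic bases and diamonds the longest principal transcript; Atg3 is highest and Atg4c lowest with either, and Atg16l1 moves most between them.

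Atg5 is the gene targeted in the study, and its counts at the gene level were not lower in Atg5-deficient libraries. Atg5 (ENSMUSG00000038160, chromosome 10, 44268358 to 44364291, plus strand) stood at 17.7, 22.5, 15.2, 19.0, 20.2 and 20.2 CPM in Atg5-deficient replicates 1 to 6, against 21.1, 13.4, 15.7, 14.0 and 20.4 CPM in wild-type replicates 1 to 5. The groups overlapped, with 1 Atg5-deficient library above all those of wild type and none below. Atg5-deficient libraries averaged 19.2 ± 2.51 CPM (SD, n = 6) and wild-type libraries 16.9 ± 3.59 CPM (SD, n = 5), from 416 to 891 reads per library. The log2 fold change was 0.18 (SE 0.14, 95% interval -0.12 to 0.48, edgeR adjusted p = 0.488).

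The gene-level count does not check the genotype, since the deleted part is not given. The principal transcript has 8 exons and 2352 bases, of which the last exon (chromosome 10, 44362916 to 44364291) holds 1376 bases or 58.5%. Each of the other 7 exons holds 3.36% to 9.65% of the bases. Single libraries of a group varied more than that (coefficient of variation 13.1% in Atg5-deficient and 21.2% in wild-type libraries). A lost exon would shift the group mean, however, and the log2 fold change between the groups had an SE of 0.14. The table gives no counts per exon, so reads from a deleted exon could not be separated from the rest.

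**Figure D2:**
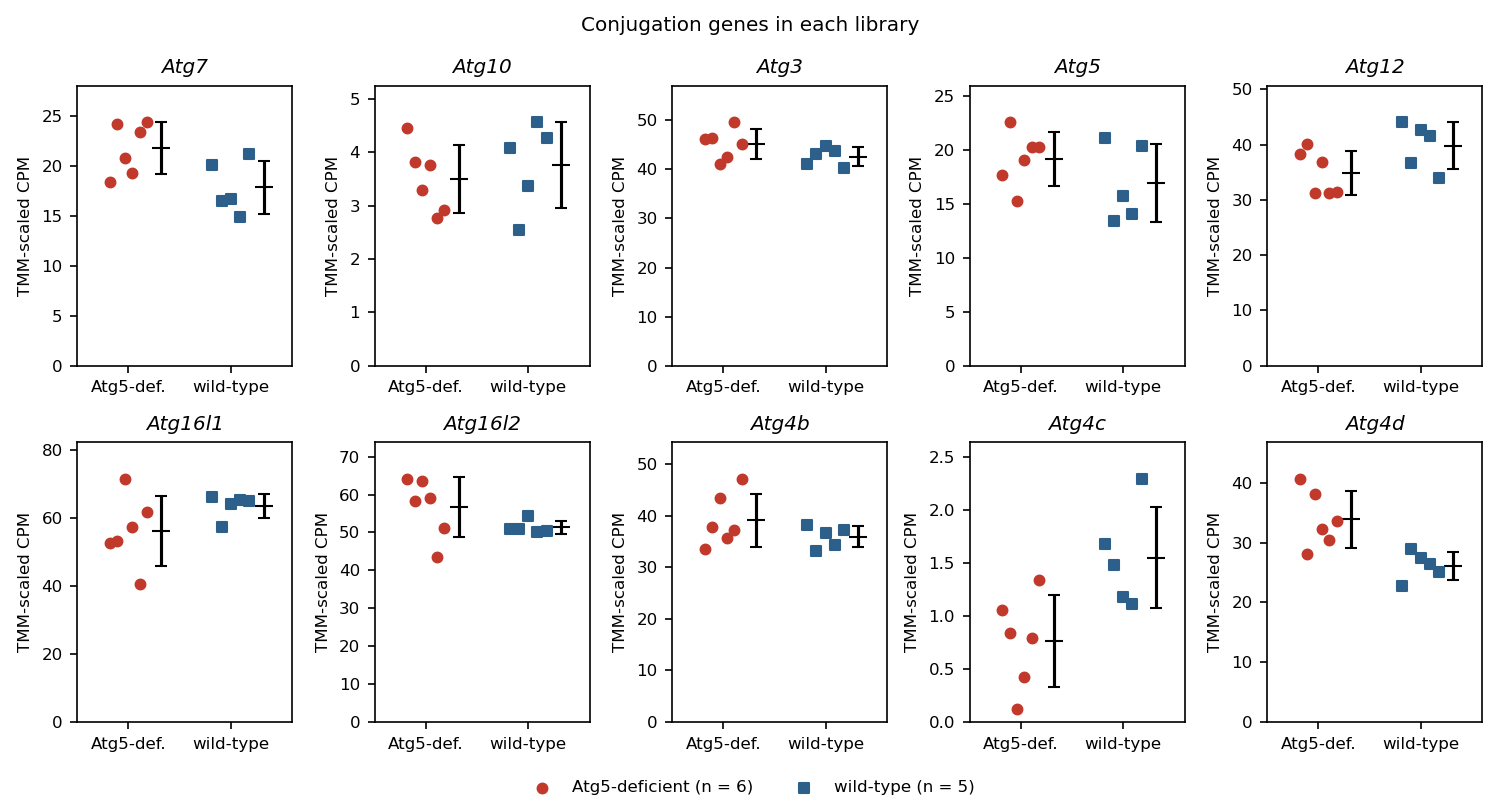
TMM-scaled CPM of the 10 genes in each library, on axes that start at 0, with red circles for the 6 Atg5-deficient and blue squares for the 5 wild-type libraries and the mean ± SD beside each group. The groups overlap in all 10 panels; Atg4d and Atg4c come closest to separating.

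Of the 10 genes, 1 passed the test between genotypes, Atg4d, which was higher, and 9 did not pass. Over all genes tested 6.84% were called (4.43% higher and 2.41% lower), so 1 of 10 lies near the background. Groups free of overlap were seen for 0 of the 10 genes, against 4.86% of all genes tested, although Atg4d did not overlap when no scaling factors were applied. At an unadjusted p under 0.05 there were 3 of 10 genes (Atg4d and Atg7 higher, Atg4c lower), against 23.4% of all genes tested. The log2 fold changes ran from -1.02 to 0.38 with a median of 0.10, and 6 of 10 were positive. Over all genes tested the median was -0.003, with 8939 of 17987 positive. The median size of the log2 fold change, whatever its sign, was 0.18 for the 10 genes and 0.25 for all genes tested.

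Atg7, the activating enzyme shared by both reactions, had 18.4, 22.1 and 24.4 CPM as the lowest, median and highest of the Atg5-deficient libraries, against 20.1, 16.5, 16.7, 14.9 and 21.2 CPM in wild-type replicates 1 to 5. It lay above every wild-type library in 3 of the 6. The log2 fold change was 0.28 (SE 0.12, 95% interval 0.03 to 0.54), and the adjusted p was 0.163 (edgeR).

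The conjugating enzymes differed little between genotypes. Atg3, which hands ATG8 proteins to the lipid, varied least of the 10 genes over the 11 libraries (mean absolute deviation of 0.07 in log2 CPM), with 41.1, 45.7 and 49.6 CPM (lowest, median and highest) in Atg5-deficient libraries and 41.2, 43.2, 44.7, 43.7 and 40.2 CPM in wild-type replicates 1 to 5. Its log2 fold change of 0.08 had a 95% interval of -0.07 to 0.24 (edgeR adjusted p = 0.535). Atg10, which hands ATG12 to ATG5, had 2.76, 3.53 and 4.46 CPM in Atg5-deficient libraries and 4.08, 2.55, 3.37, 4.56 and 4.28 CPM in wild-type replicates 1 to 5, and rested on 79 to 168 reads per library. Its interval of -0.56 to 0.35 around a log2 fold change of -0.11 is wider accordingly (edgeR adjusted p = 0.809).

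Genes of the ligase complex besides Atg5 did not pass either, and their fold changes did not share a sign. Atg12, the ubiquitin-like protein attached to ATG5, had 31.3, 34.2 and 40.2 CPM (lowest, median and highest) in Atg5-deficient libraries and 44.0, 36.8, 42.7, 41.6 and 34.0 CPM in wild-type replicates 1 to 5. In 3 Atg5-deficient libraries Atg12 lay below every wild-type library, and its log2 fold change was -0.19 (SE 0.10, 95% interval -0.40 to 0.02, edgeR adjusted p = 0.274). Atg16l1, the scaffold that directs the conjugate to membranes, had 40.4, 55.2 and 71.4 CPM in Atg5-deficient libraries and 66.0, 57.3, 63.9, 65.1 and 64.8 CPM in wild-type replicates 1 to 5. Of the Atg5-deficient values 3 lay below and 1 above those of wild type, and the log2 fold change was -0.18 (SE 0.12, 95% interval -0.43 to 0.07, edgeR adjusted p = 0.387). Atg16l2, a paralog that binds the ATG5 conjugate but does not replace ATG16L1 in starvation-induced autophagy, had 43.6, 58.7 and 64.2 CPM in Atg5-deficient libraries and 50.8, 51.0, 54.5, 50.04 and 50.3 CPM in wild-type replicates 1 to 5. Here 4 Atg5-deficient values lay above and 1 below those of wild type, and the log2 fold change was 0.14 (SE 0.10, 95% interval -0.07 to 0.35, edgeR adjusted p = 0.415).

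Both scaffold genes were more even among wild-type libraries, which was not particular to them. Atg3, Atg12, Atg4b, Atg4c and Atg4d were also more even in wild type, and Atg5, Atg7 and Atg10 less even. For Atg4b the coefficient of variation was 13.1% in Atg5-deficient and 5.68% in wild-type libraries. The share of all genes more even in wild type was not computed. For Atg16l1 it was 18.5% in Atg5-deficient and 5.55% in wild-type libraries, and for Atg16l2 14.1% and 3.5%. Counts of one gene over another in the same library do not depend on the scaling. Atg16l2 had 1.02 ± 0.144 reads per read of Atg16l1 in Atg5-deficient and 0.811 ± 0.0561 in wild-type libraries (SD, n = 6 and 5), a ratio that in 5 of 6 Atg5-deficient libraries exceeded that of any wild-type one. Atg12 had 1.84 ± 0.257 reads per read of Atg5 in Atg5-deficient and 2.44 ± 0.542 in wild-type libraries, and 2 of 6 Atg5-deficient libraries lay below every wild-type library. These ratios were not tested, and since the 2 genes differ in length they compare libraries and not genes.

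Among the ATG4 proteases, Atg4d rose in Atg5-deficient libraries. Atg4d (ENSMUSG00000002820, chromosome 9, 21265293 to 21277772, plus strand) stood at 40.7, 28.1, 38.2, 32.4, 30.4 and 33.6 CPM in Atg5-deficient replicates 1 to 6, against 22.8, 28.9, 27.4, 26.4 and 25.1 CPM in wild-type replicates 1 to 5. All Atg5-deficient libraries but replicate 2 exceeded each wild-type one. Atg5-deficient libraries averaged 33.9 ± 4.76 CPM (SD, n = 6) and wild-type libraries 26.1 ± 2.31 CPM (SD, n = 5), a 1.30-fold difference (log2 fold change 0.38, SE 0.11, 95% interval 0.15 to 0.61, edgeR adjusted p = 0.0491). The call is at the threshold: it held in 3 of 11 fits that left out 1 library (without Atg5-deficient replicate 2 or 5, or wild-type replicate 2), with log2 fold changes of 0.32 to 0.43 over the 11, and in 3 of 8 other alternatives.

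Atg4d shares 1405 of its exonic bases (19.3%) with Kri1 on the other strand, a gene of ribosome biogenesis with 42239 reads over the 11 libraries against 12414 for Atg4d. The kit marks strand, but the strand setting of the counting is not given, so reads in the shared bases may belong to either gene, and their part in the result was not tested. Kri1 averaged 97.4 ± 7.95 CPM over Atg5-deficient libraries (SD, n = 6) and 109 ± 9.87 CPM over wild-type ones (SD, n = 5), with a log2 fold change of -0.16 (SE 0.08, edgeR adjusted p = 0.272), opposite in sign to that of Atg4d. Atg4d had 0.301 to 0.451 reads per read of Kri1 in Atg5-deficient libraries and 0.201 to 0.277 in wild-type libraries, which did not overlap. This ratio was not tested, and it joins a gene called higher with one of the opposite sign. For every other pair of genes compared here the groups overlapped. The share of all gene pairs free of overlap was not computed, so the ratio adds nothing to the call of Atg4d.

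Atg4c showed the lowest level and the largest fold change of the 10 genes, without passing the test. Atg4c (ENSMUSG00000028550, chromosome 4, 99193934 to 99259787, plus strand) stood at 1.05, 0.834, 0.126, 0.424, 0.790 and 1.34 CPM in Atg5-deficient replicates 1 to 6, against 1.67, 1.48, 1.18, 1.11 and 2.29 CPM in wild-type replicates 1 to 5. All Atg5-deficient libraries but replicate 6 lay below every wild-type library. These values rest on 4 to 51 reads per Atg5-deficient and 39 to 90 reads per wild-type library. The log2 fold change was -1.02 (SE 0.46, 95% interval -2.0 to -0.04, edgeR adjusted p = 0.197), and -0.80 without Atg5-deficient replicate 3, the library with 4 reads. It was negative in all 18 alternatives in which the gene was tested, and called in 0 of them.

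Atg4b, the protease with the broadest activity on ATG8 proteins in mammals, had 33.6, 37.4 and 47.1 CPM (lowest, median and highest) in Atg5-deficient libraries and 38.2, 33.2, 36.6, 34.4 and 37.1 CPM in wild-type replicates 1 to 5. Its log2 fold change was 0.12 (SE 0.10, 95% interval -0.08 to 0.33, edgeR adjusted p = 0.480). The remaining paralog, Atg4a, which mainly acts on the GABARAP branch, averaged 14.4 ± 2.41 CPM over Atg5-deficient libraries (SD, n = 6) and 13.3 ± 1.82 CPM over wild-type ones (SD, n = 5) and did not pass (log2 fold change 0.11, edgeR adjusted p = 0.670). Whether Atg4d differed from its paralogs in its response was not tested. Atg4d had 0.879 ± 0.180 reads per read of Atg4b in Atg5-deficient and 0.732 ± 0.102 in wild-type libraries, and those groups overlapped.

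**Figure D3:**
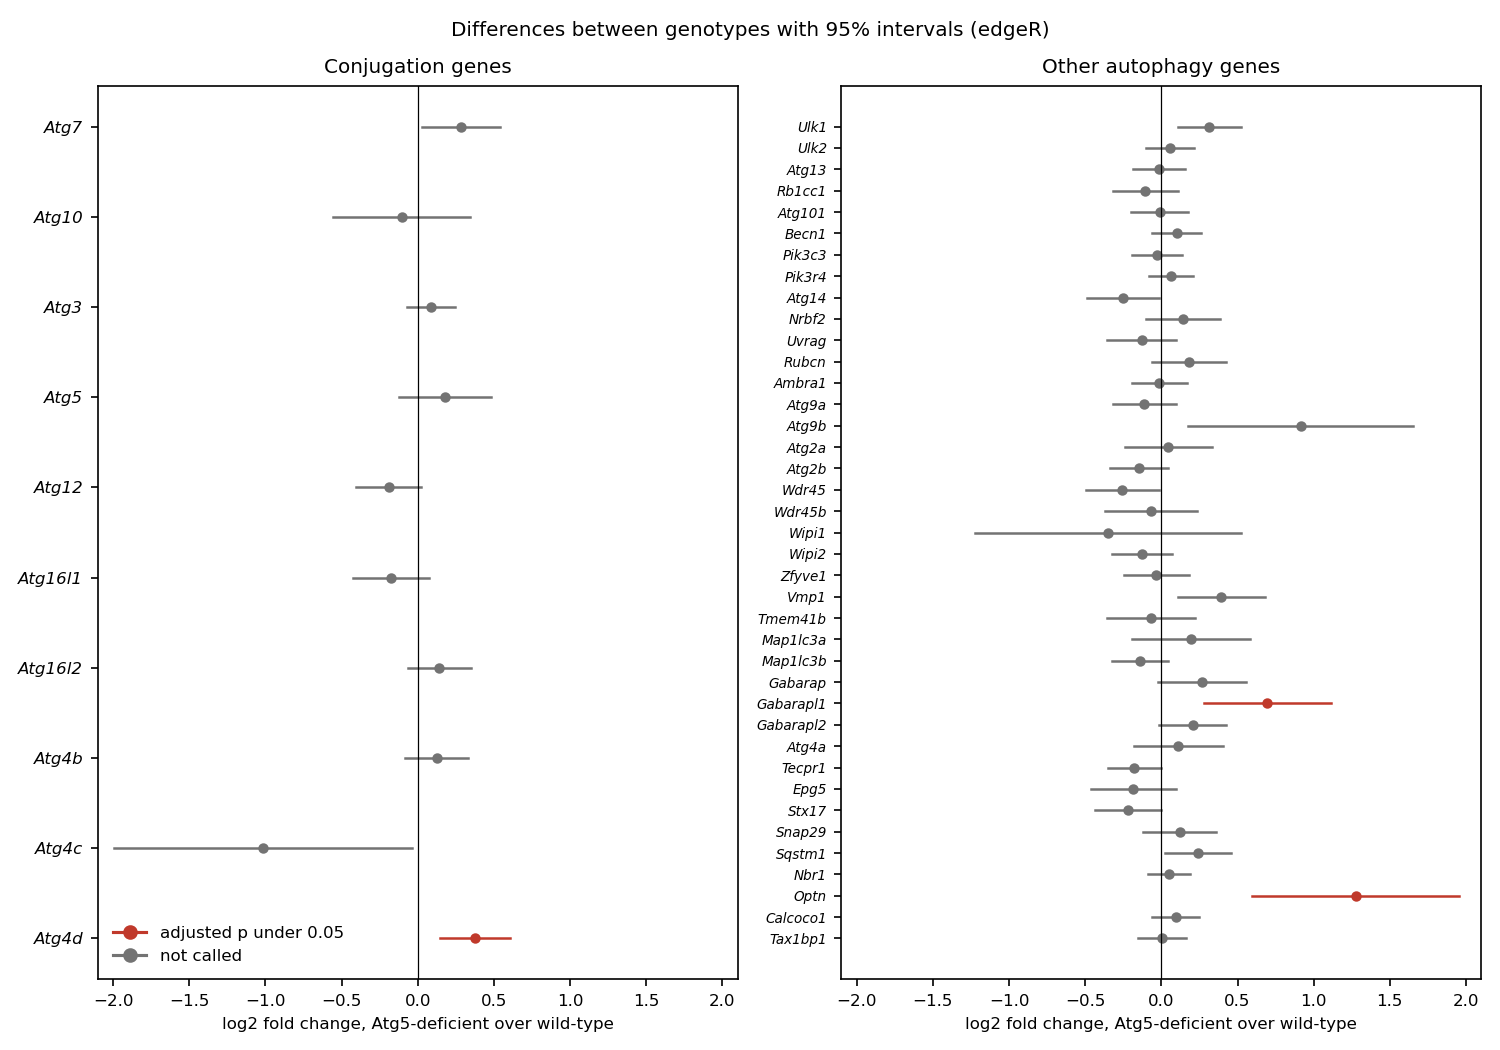
Log2 fold changes of the 10 conjugation genes (left) and 39 other autophagy genes (right), Atg5-deficient over wild-type, with 95% intervals from edgeR; red marks an adjusted p under 0.05. Atg4d on the left and Gabarapl1 and Optn on the right are the calls, and Atg4c has the widest interval on the left.

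Libraries with consecutive numbers in their titles (8 libraries, 5 Atg5-deficient and 3 wild-type) were also compared on their own, since the numbers may mark a shared batch, although the labels do not say so. Among them Atg5 ranged over 15.2 to 22.5 CPM in the Atg5-deficient libraries and 13.4 to 15.7 CPM in the wild-type ones, and the log2 fold change was 0.40 (SE 0.15, edgeR adjusted p = 0.191). The 2 wild-type libraries outside that run had 21.1 and 20.4 CPM and the Atg5-deficient one 20.2 CPM. Atg7 followed the same division. It had 18.4 to 24.2 CPM in the Atg5-deficient libraries of the run and 14.9 to 16.7 CPM in its wild-type ones. The log2 fold change was 0.41 (SE 0.13, edgeR adjusted p = 0.135). Outside the run Atg7 had 24.4 CPM in the Atg5-deficient library and 20.1 and 21.2 CPM in those of wild type. For both genes the wild-type libraries of the run were thus lower than those outside it. The same held for Atg4b (33.2 to 36.6 CPM in the run, 37.1 to 38.2 CPM outside) and Atg4c (1.11 to 1.48 and 1.67 to 2.29 CPM). Wild-type libraries of the run were instead higher for Atg3 (43.2 to 44.7 and 40.2 to 41.2 CPM) and Atg4d (26.4 to 28.9 and 22.8 to 25.1 CPM). For Atg10, Atg12, Atg16l1 and Atg16l2 the wild-type libraries inside and outside the run overlapped. Of the marker lists, the sums of endothelial, CD8 T cell and erythroid markers were also lower in the wild-type libraries of the run, without overlap. That of hepatocyte markers was higher there, without overlap. Those of CD4 T cell, NK cell, B cell, macrophage and monocyte, neutrophil, stellate and fibroblast, and cholangiocyte markers overlapped. How many of all genes divide the wild-type libraries in this way was not computed, so these divisions cannot be set against a background. Hepatocyte markers summed to 287, 440 and 239 CPM in wild-type replicates 2 to 4, in the run, against 61.2 and 30.6 CPM in replicates 1 and 5. Endothelial markers summed to 123, 147 and 189 CPM in wild-type replicates 2 to 4, against 223 and 212 CPM in replicates 1 and 5. Among Atg5-deficient libraries the hepatocyte sum did not follow the run, with 42.0 to 782 CPM inside it and 178 CPM outside. The part of these cells in the result was not tested. Atg4d had a log2 fold change of 0.30 within the run (edgeR adjusted p = 0.286), Atg4c one of -0.95 (edgeR adjusted p = 0.448) and Atg10 one of 0.05, where all libraries gave -0.11. Over all alternatives the edgeR, DESeq2 or limma-voom adjusted p ran from 0.191 to 0.712 for Atg5, from 0.114 to 0.331 for Atg7, from 0.0175 to 0.286 for Atg4d and from 0.0750 to 0.448 for Atg4c. In the consecutive libraries 176 of 18831 genes tested were called in all. Groups free of overlap in the run were seen for Atg7 and for Atg4c. For Atg4c the highest Atg5-deficient library of the run had 1.05 CPM and the lowest wild-type one 1.11 CPM. The share of all genes free of overlap in the run was not computed, so these 2 genes cannot be set against a background.

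Across the 11 libraries Atg7 was the conjugation gene whose pattern lay closest to that of Atg5. Likeness was measured as the mean absolute difference of log2 CPM after each gene was centred on its mean over the 11 libraries. By that measure Atg7 (0.118) came 16th of 12702 protein-coding genes, and the next conjugation gene, Atg3 (0.214), came 2400th. A gene that did not vary at all would score 0.219, the mean absolute deviation of Atg5 itself. The value of Atg3 is close to that and shows no likeness. The 5 closest genes were Zdhhc15, a palmitoyltransferase gene (0.0791), Ttc21b, a component of intraflagellar transport (0.0812), the zinc finger gene Zfp429 (0.0994), Slco3a1, an organic anion transporter gene (0.105), and Cep192, a centrosome protein gene (0.107). None of these 5 genes was called between genotypes (edgeR adjusted p of 0.437 to 0.707). The values share libraries and depth, and the likeness is a description only.

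**Figure D4:**
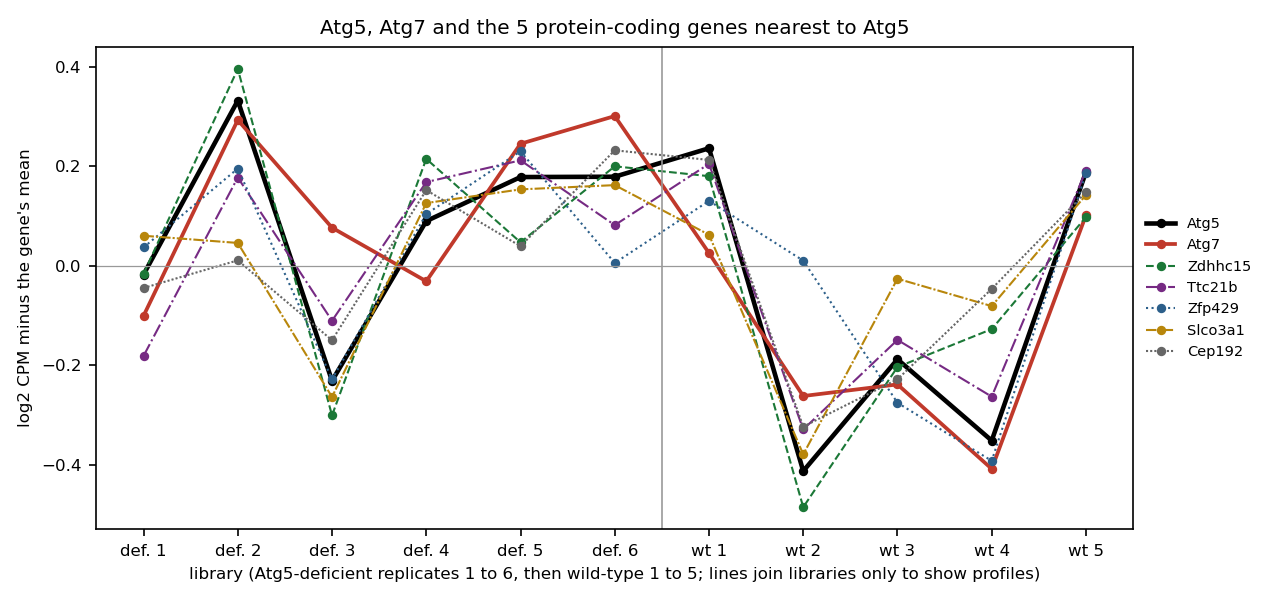
Log2 CPM of Atg5, Atg7 and the 5 protein-coding genes nearest to Atg5, each minus its own mean, in Atg5-deficient replicates 1 to 6 and wild-type replicates 1 to 5. Atg5 and Atg7 are both low in wild-type replicates 2 to 4 and above their means in wild-type replicates 1 and 5; lines join libraries only to make profiles visible.

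Of 39 other genes of autophagy, 2 rose, none fell and 37 did not pass, against 4.43% higher and 2.41% lower among all genes tested. At an unadjusted p under 0.05 there were 6 higher and 4 lower genes of 39, against 12.7% higher and 10.6% lower among all genes tested, so these counts lie near the background. Their median log2 fold change was 0.005, and 20 of 39 were positive. Gabarapl1, an ATG8 family member and so a substrate of the conjugation, averaged 8.23 ± 1.66 CPM over Atg5-deficient libraries (SD, n = 6) and 5.08 ± 1.19 CPM over wild-type ones (SD, n = 5; log2 fold change 0.70, SE 0.19, edgeR adjusted p = 0.0462). Optn, a cargo receptor gene, averaged 10.1 ± 2.84 CPM over Atg5-deficient libraries (SD, n = 6) and 4.17 ± 2.17 CPM over wild-type ones (SD, n = 5; log2 fold change 1.27, SE 0.32, edgeR adjusted p = 0.0303). When 1 library was left out, the Gabarapl1 call held in 3 of 11 fits (without Atg5-deficient replicate 3 or 4, or wild-type replicate 3) and in 5 of 8 other alternatives. The Optn call held in 4 of those 11 fits (without Atg5-deficient replicate 3, 5 or 6, or wild-type replicate 3) and in 7 of 8 other alternatives.

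By step of the pathway, 0 of 5 ULK initiation genes, 0 of 8 VPS34 nucleation genes, 0 of 11 genes of lipid supply and phosphoinositide readers and 0 of 4 genes of the fusion group were called. The group of ATG8 genes, which also holds the protease gene Atg4a, had 1 of 6 genes called (Gabarapl1) and a median log2 fold change of 0.20, and the cargo receptors 1 of 5 (Optn) and a median of 0.09. Map1lc3b, the main LC3 gene, averaged 130 ± 16.2 CPM over Atg5-deficient libraries (SD, n = 6) and 143 ± 5.19 CPM over wild-type ones (SD, n = 5), with a log2 fold change of -0.14 (edgeR adjusted p = 0.362). Sqstm1, whose protein p62 is itself degraded by autophagy, averaged 225 ± 29.3 CPM over Atg5-deficient libraries (SD, n = 6) and 190.1 ± 19.4 CPM over wild-type ones (SD, n = 5; log2 fold change 0.24, edgeR adjusted p = 0.167). RNA counts do not measure the conjugated ATG12-ATG5 protein, lipidated LC3 or p62 protein.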

How the data were processed

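RNA described as that of liver CD4 T cells was measured in 11 libraries, 6 from Atg5-deficient and 5 from wild-type mice. The series text describes sorted cells, whereas the labels' protocols describe RNA from fixed, paraffin-embedded sections and a stranded total RNA kit, and the sources do not settle which applies. The authors deposited raw read counts per Ensembl gene. The submitters' processing notes name STAR, featureCounts and GRCm38. No source used here gives versions, the annotation release, the strand setting or how multimapping reads were handled. Of 56748 IDs, 91.9% matched GENCODE M21, holding 89.3% to 96.5% of the reads of a library.

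Groups were taken from the genotype label. Replicate numbers follow accession order and pair nothing. Within groups, chi-square per degree of freedom between any pair of libraries was 14.1 to 188, so no pair agreed within counting noise and none was merged; this does not show separate mice. Low counts were filtered with edgeR's filterByExpr, with a minimum count of 10 and a minimum total of 15. The first minimum applies, as CPM, to as many libraries as the smaller group holds, not to every library. Atg4c was thus tested with 4 reads in Atg5-deficient replicate 3. Genotype was tested by edgeR's quasi-likelihood test (robust, TMM factors) with Benjamini-Hochberg adjustment over 17987 genes and a threshold of 0.05. CPM of genes is relative to reads in tested genes; marker sums use total counts. The SE is the log2 fold change divided by the square root of F. Levels per length used exonic bases from GENCODE M21. On the scale of the gene values 3 counts correspond to 0.0679 to 0.0968 CPM, by library. The test was checked on simulated counts, where it recovered 44.8% of 1.5-fold, 71.6% of 2-fold and 92.4% of 4-fold changes. Of 146 genes called there, 7 were false. Some 2-fold and 4-fold changes were thus missed there too, and a gene that did not pass may still differ by as much. Computation used edgeR 4.0.16 and limma 3.58.1 in R 4.3.3, with sva 3.50.0 and DESeq2 1.42.0 for alternatives.

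The conjugation genes and the lists of other autophagy genes and cell type markers were chosen with earlier results of these data known. Genes named are the 10 conjugation genes, called genes of the other autophagy list with Sqstm1, Map1lc3b and Atg4a, the 5 protein-coding genes nearest to Atg5 and genes that share exonic bases with a conjugation gene; Fchsd2, which shares 25 bases with Atg16l2, is the other such gene. Alternatives were other scalings, DESeq2, limma-voom with sample quality weights, other low-count filters, a surrogate variable, the libraries with consecutive title numbers and each library left out in turn.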

Additional observations from a re-analysis of the deposited data

Results flagged for a closer look

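In 20 groups checked (10 genes in each genotype), 2 held a library far from the others, where chance flags about 1 in 20. Atg16l1 in wild-type replicate 2 stood at 57.3 CPM, below the other 4 wild-type libraries, of which the lowest had 63.9 CPM. Atg16l2 in wild-type replicate 3 stood at 54.5 CPM, above the other 4, of which the highest had 51.0 CPM. Both lie within the range of the Atg5-deficient libraries.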

How the results depend on the processing

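The count of conjugation genes called higher fell to 0 with upper-quartile scaling, without a low-count filter, with the strict filter (mean count of 50), with a surrogate variable and in the 8 libraries with consecutive title numbers, and ran from 0 to 1 when 1 library was left out; the call of Atg4d was the one lost, and its log2 fold change stayed between 0.30 and 0.43. No conjugation gene was called lower under any of the 19 alternatives. Directions of the 10 genes held in all alternatives in which they were tested, except that Atg10 had a log2 fold change of 0.053 in that run. Atg4c was not tested under the strict filter. Among the 39 other autophagy genes, those called higher numbered 1 with upper-quartile scaling, 4 with DESeq2, 6 with limma-voom and sample quality weights (a change of both test and weighting), 1 with a surrogate variable and 0 in the run of 8 libraries, and 0 to 3 when 1 library was left out; those called lower numbered 3 with limma-voom and these weights and 0 to 1 when 1 library was left out. Over all genes DESeq2 called 2333, limma-voom with these weights 3382 and the run of 8 libraries 176 genes, against 1231, and leaving out 1 library gave 642 to 2143: 2143 without Atg5-deficient replicate 3, and 642 to 715 without Atg5-deficient replicate 1, 2 or 4 or wild-type replicate 1, 4 or 5. The cause of these differences was not tested. Upper-quartile scaling shifted the median log2 fold change of all genes by -0.07. Depth limits Atg4c most, with 4 to 90 reads per library.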
